A study of Mus musculus with 10 samples.

Results

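The 10 Sox genes examined here were Sox2, Sox4, Sox5, Sox6, Sox8, Sox9, Sox10, Sox11, Sox12 and Sox13, taken by their gene symbol from the 43346 genes of the deposited count table. They were measured in RNA from mouse O9-1 cells, a line of cranial neural crest cells, in 10 libraries. The groups were 4 wildtype samples (WT/1 to WT/4), 3 clones in which Kat5 had been inactivated by CRISPR/Cas9 editing (Kat5/1 to Kat5/3, Kat5 ko) and 3 clones in which Ep400 had been inactivated in the same way (Ep400/1 to Ep400/3, Ep400 ko). Kat5 is the histone acetyltransferase and Ep400 the ATP-dependent remodeler of the Tip60/Ep400 chromatin complex, and the comparisons ask which Sox genes depend on either subunit. All cells, wildtype included, grew on Matrigel in medium conditioned by mitotically inactive fibroblasts. Each knockout library stands for 1 clone of a tetraploid line, grown from a single sorted cell after transfection. No such cloning is described for the wildtype samples, so knockout and cloning cannot be told apart. For the RNA of its RT-PCR the paper gives an early passage after sorting. By their genotyping, Ep400/2 and Ep400/3 carry in-frame deletions at the ATP binding site in some alleles in addition to frameshifts, whereas all alleles of Ep400/1 and of the Kat5 ko clones are frameshifted.

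Sox proteins bind the minor groove of DNA through a shared HMG box and bend it, and they act together with partner factors that differ between cell types. They fall into subgroups by sequence. SoxB1 proteins such as Sox2 keep progenitors undifferentiated, and SoxC proteins (Sox4, Sox11, Sox12) are transcriptional activators in progenitors and in the mesenchyme of the face. SoxD proteins (Sox5, Sox6, Sox13) lack an activation domain of their own and modulate other Sox proteins. SoxE proteins (Sox8, Sox9, Sox10) govern the neural crest itself, with Sox9 needed for cartilage and Sox10 for glia and melanocytes.

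Levels are given as CPM, that is counts scaled to a common library total of 1000000 after TMM correction of the library sizes. Libraries held 30968945 to 44776201 counts in wildtype, 32709984 to 48301792 in the Kat5 ko clones and 32950540 to 41231337 in the Ep400 ko clones. Kat5 was at 53.8 ± 3.98 CPM (SD, n = 4) in wildtype and at 20.8 ± 3.83 (SD, n = 3) in Kat5 ko clones, and Ep400 was at 159 ± 3.91 in wildtype and 58.6 ± 3.47 in Ep400 ko clones, each in the direction its label gives. Of 14 markers of cranial neural crest and its mesenchyme, 1 (Foxd3) had no read in any library. The summed level of the 14 was 1686 to 1961 CPM in wildtype, 1740 to 1886 in Kat5 ko clones and 2506 to 3779 in Ep400 ko clones. Most of it was Prrx1, Cd44 and Pdgfra, with means of 827, 452 and 123 CPM in wildtype and 1335, 551 and 588 CPM in Ep400 ko clones. Snai1, Tfap2b, Ets1 and Nes had lower means in Ep400 ko clones than in wildtype, and the other detected markers had higher means. By the limits given below, 4 of 13 tested markers were called in Ep400 ko clones, all higher, against 4.12% of all tested genes. Pax3 among them passed the count filter only through these clones. Prrx1 and Cd44 overlapped with wildtype and were not called. All 6 markers of pluripotent cells had at most 3 counts in every library.

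The SoxC genes are the group in which the differences described here were found, and the 250 bases upstream of their RefSeq transcription starts (GRCm38.p6, all on the minus strand, printed 5′ to 3′) are therefore shown, with CG dinucleotides in capitals. They lie at chr13:28953700-28953949 for Sox4, at chr12:27342719-27342968 for Sox11 and at chr2:152398047-152398296 for Sox12. A check of the orientation against annotated transcripts found a match for Sox4 and Sox12 but not for Sox11. The Sox11 window does not reach the annotated end of the gene at 27342574.
Sox4: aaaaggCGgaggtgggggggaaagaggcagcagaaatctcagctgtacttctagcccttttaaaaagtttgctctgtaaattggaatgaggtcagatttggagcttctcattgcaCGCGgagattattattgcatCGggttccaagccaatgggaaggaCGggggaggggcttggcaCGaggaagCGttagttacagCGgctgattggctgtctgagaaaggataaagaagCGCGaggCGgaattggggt
Sox11: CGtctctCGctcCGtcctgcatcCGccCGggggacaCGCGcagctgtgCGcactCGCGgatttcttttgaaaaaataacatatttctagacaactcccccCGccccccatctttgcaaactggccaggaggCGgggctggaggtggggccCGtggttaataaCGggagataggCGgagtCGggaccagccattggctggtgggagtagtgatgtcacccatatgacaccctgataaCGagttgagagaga
Sox12: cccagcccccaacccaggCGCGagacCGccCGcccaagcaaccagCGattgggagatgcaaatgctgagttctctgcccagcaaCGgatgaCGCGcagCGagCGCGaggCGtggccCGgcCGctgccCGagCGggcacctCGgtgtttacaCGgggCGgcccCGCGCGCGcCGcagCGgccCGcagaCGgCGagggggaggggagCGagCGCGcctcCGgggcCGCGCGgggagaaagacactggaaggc
These promoters held 11 (Sox4), 17 (Sox11) and 35 (Sox12) CG dinucleotides, against a median of 6 over 32851 mouse promoter windows of the same length. At least as many were found in 35.6%, 23.5% and 2.97% of all windows, respectively, so that only the Sox12 promoter lay far in the upper part of the distribution. The GC content was 50.8%, 58% and 74.4% in the same order. The motif CCAAT, searched on both strands, occurred 4 times in the Sox4, 1 time in the Sox11 and 1 time in the Sox12 promoter, and 33.9% of all windows held at least 1. TATAAA occurred in none of the SoxC promoters, and 12.4% of all windows held it. Such matches describe the letters only. Sox2, Sox5, Sox6, Sox8 and Sox13 also had RefSeq promoter windows, Sox9 and Sox10 did not.

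In wildtype cells the 10 genes spanned the range from abundant to undetected. Per kilobase of exon, the mean level was highest for Sox4 (22.8 ± 3.67 CPM per kilobase, SD, n = 4), followed by Sox2 (20.2 ± 3.24), Sox12 (16.9 ± 2.03) and Sox9 (15.9 ± 2.78). The ranges of neighbours in this order overlapped, so that these 4 genes cannot be ranked beyond the spread between samples. A gap of 9.18-fold separated Sox9 from Sox11 (1.74 ± 1.44 CPM per kilobase), which overlapped with Sox5 (0.615 ± 0.376), and Sox5 with Sox13 (0.557 ± 0.251). Sox6 (0.0043 CPM per kilobase) had at most 4 reads in a wildtype library and Sox8 (0.0023) at most 1, and Sox10 was not detected. Wildtype O9-1 cells thus held transcripts of at least 1 member of each subgroup, and all SoxE reads of the wildtype libraries came from Sox9 except 1 read of Sox8 in WT/2.

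**Figure D1:**
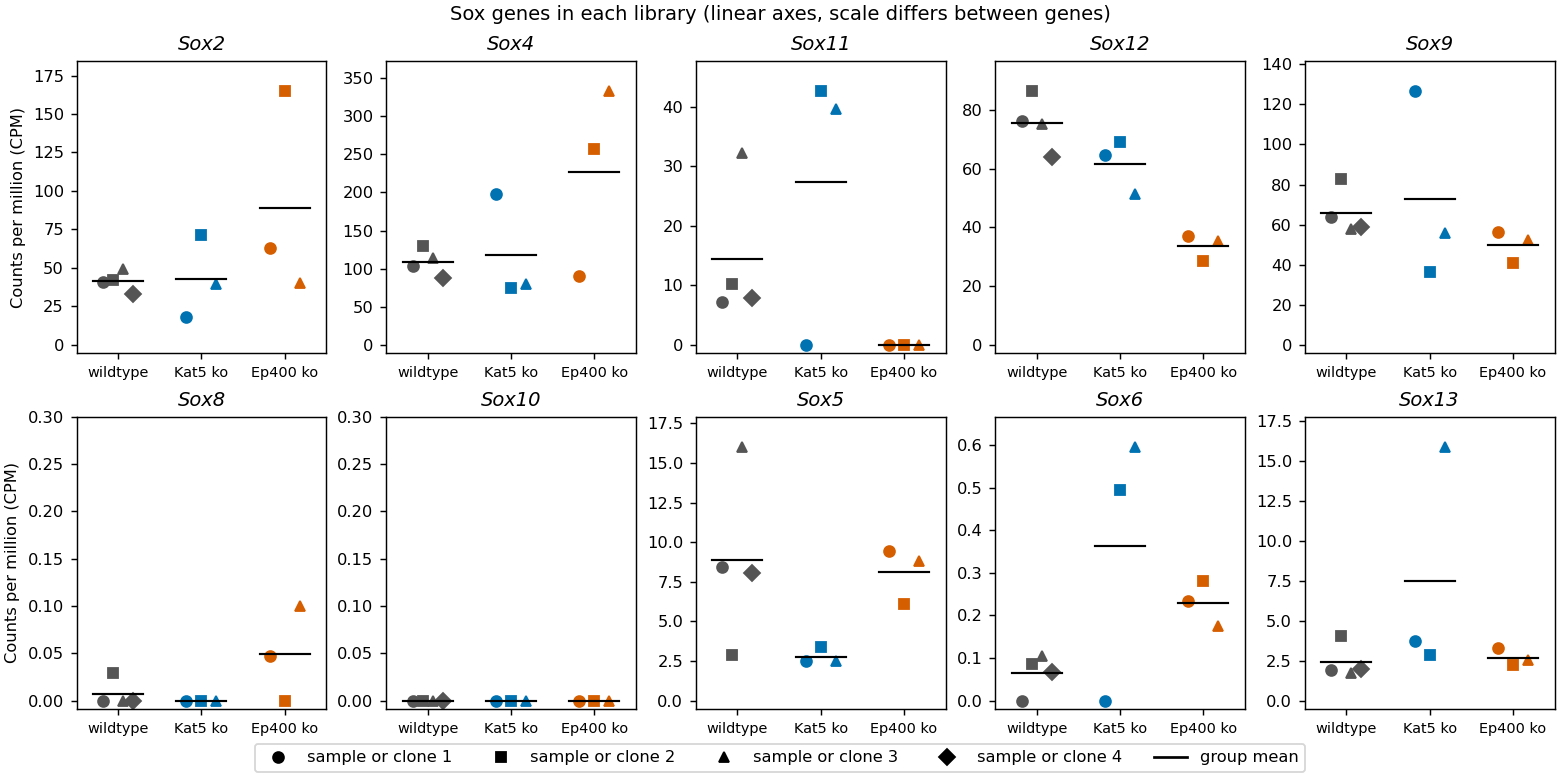
Level of each of the 10 Sox genes in CPM (vertical axis, linear, with its own scale per gene) in wildtype, Kat5 ko and Ep400 ko libraries. Points are single libraries, their shape gives the sample or clone number, and the line is the group mean. Sox11 is at 0 in all Ep400 ko clones and in Kat5/1, and the Sox12 values of the Ep400 ko clones lie below those of all other libraries.

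In the tests, a gene was called when its absolute log2-fold change was at least 1, its p in the quasi-likelihood test of edgeR, adjusted over all tested genes, at most 0.05 and its mean normalized count above 100 in at least 1 group. Sox6, Sox8 and Sox10 were too low to pass the count filter in any comparison with all its libraries. Of the other 7 members, 0 were called in Kat5 ko clones, where 0.476% of 13434 tested genes were called, and 2 had an unadjusted p of at most 0.05 (Sox5 and Sox13), as had 22.3% of the tested genes. The clones overlapped with wildtype for all 7, while 19.6% of the tested genes had no overlap. With DESeq2 1 member, Sox5, was called, as were 507 of the 13434 tested genes. In Ep400 ko clones 2 of 7 were called, Sox11 and Sox12, both lower, against 6.42% of 13836 tested genes (2.3% called lower). The clones lay apart from wildtype for 3 of 7 members (Sox9, Sox11 and Sox12, all lower), as they did for 30.2% of the tested genes. The median log2-fold change of the 7 tested members was 0.083 in Kat5 ko and -0.12 in Ep400 ko clones, and that of all tested genes was 3.2e-05 and 0.043. Setting Sox11 to its bound leaves its place as the lowest member and thus the Ep400 ko median as it is. Both comparisons used the same 4 wildtype libraries and are therefore not independent of each other. As bulk RNA was measured, fewer cells expressing a gene and less RNA per cell cannot be told apart.

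**Figure D2:**
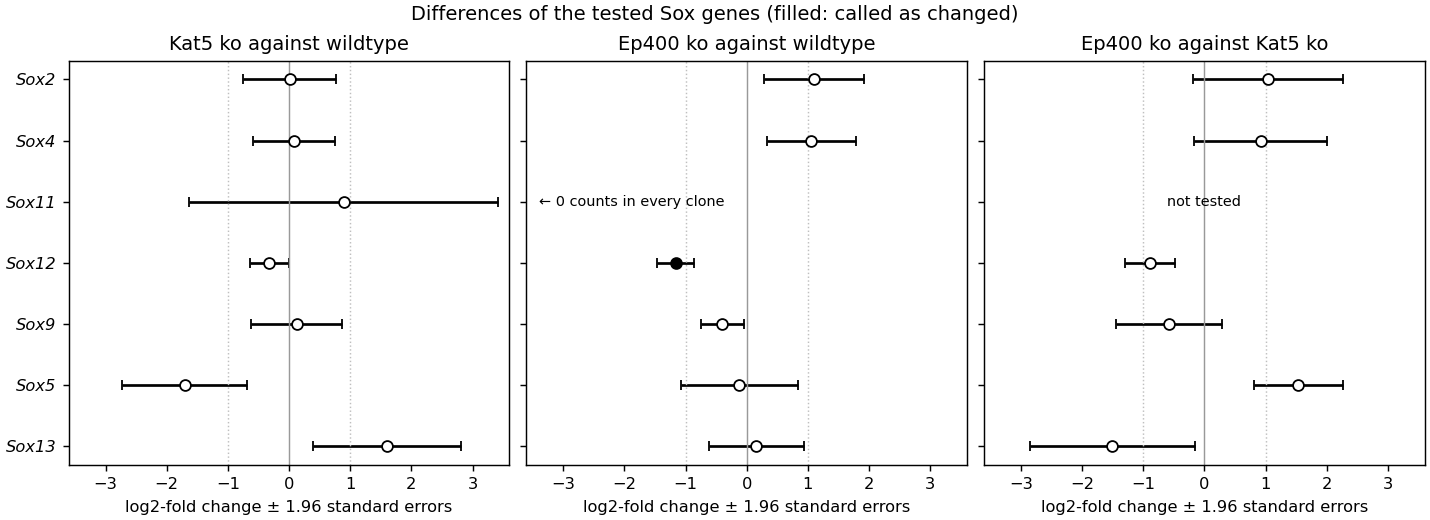
Log2-fold change (horizontal axis) of the tested Sox genes in the comparisons named above each panel, with bars of 1.96 standard errors and filled points for called genes. Sox12 in Ep400 ko clones, at -1.16, is the only filled point, and Sox11, with 0 counts in every Ep400 ko clone and therefore no finite ratio, is called as well.

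Among the SoxC genes, Sox11 showed the widest differences. The gene lies on chromosome 12 (27334264-27342574, minus strand, GRCm38) and consists of a single exon. Sox11 had 228, 352, 1238 and 359 counts in WT/1 to WT/4, which corresponds to 7.28, 10.2, 32.3 and 7.93 CPM. All 3 Ep400 ko clones had 0 counts. A count of 0 allows up to 3 counts, and against this floor per library the wildtype mean of 14.4 ± 11.985 CPM (SD, n = 4) was at least 205-fold higher than Ep400/1, at least 154-fold higher than Ep400/2 and at least 193-fold higher than Ep400/3 (counting error only). WT/3 raised this mean, and the lowest wildtype library, WT/1, was at least 103-fold, 77.7-fold and 97.5-fold higher than the same clones. The groups did not overlap, and the difference was called (edgeR adjusted p = 0.00461). The call was made in all alternatives tried, including those that left out 1 library.

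The Kat5 ko clones diverged in Sox11. Kat5/1 had 0 counts, like the Ep400 ko clones, and the wildtype mean was at least 174-fold above its floor. Kat5/2 and Kat5/3 had 1293 and 1802 counts, or 42.6 and 39.7 CPM, which was 2.95 and 2.75 times the wildtype mean and 1.32 and 1.23 times the highest wildtype library. The clones of this genotype thus lay on both sides of wildtype. The fitted log2-fold change of the group was 0.89 with a standard error of 1.29 (edgeR adjusted p = 0.720), and it turned to -2.01 with limma and to -0.40 with a replicate block. It ranged from 0.45 (without Kat5/2) to 1.67 (without WT/3) with single libraries left out and was 1.48 without Kat5/1 (adjusted p = 0.124). The SD of Sox11 on the log2 scale among the Kat5 ko clones exceeded that of 99.97% of 14079 genes. The size of this SD depends on the prior count of 2 added before taking logs, which sets the value of Kat5/1.

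Kat5/1 stood apart in other measurements too. The summed level of 6 smooth muscle markers was 758 CPM in Kat5/1, with Acta2 (smooth muscle actin) at 505 and Tagln (transgelin) at 180 CPM, and 53.7 to 78.3 CPM in wildtype. Cnn1, Myh11 and Des, markers of the same list, were at most at 0.0827 CPM in any Kat5 ko clone. In the Ep400 ko clones, where Sox11 was equally absent, this sum was 18.998 to 90.7 CPM. Most of the wildtype sum was Smtn, with a mean of 51.9 CPM in wildtype and 28.1 CPM in Ep400 ko clones. Acta2 was at 47.0, 2.06 and 58.4 CPM in Ep400/1 to Ep400/3, against 5.58 to 15.3 CPM in wildtype. The sum therefore does not show the level of Acta2 in these clones. The median log2 shift of the genes on chromosome 12 was -0.27 in Kat5/1 and -0.098, 0.11 and -0.084 in the Ep400 ko clones. Other chromosomes shifted as far in Kat5/1, among them chromosome 15 (-0.35), chromosome 1 (-0.27) and chromosome 18 (0.31), so that the shift was not particular to chromosome 12. With a chromosome offset in the model, Sox11 was still called in Ep400 ko clones (edgeR adjusted p = 0.00592), and its log2-fold change in Kat5 ko clones was 0.79. The part of the smooth muscle markers in the Sox11 counts was not tested. The genes nearest to Sox11 that passed the count filter of the Ep400 ko comparison, chosen after values were seen, were far away. Genes below this filter were not examined. Rps7, a ribosomal protein gene 1288280 bases beyond Sox11, was detected in all libraries at 403 to 741 CPM, and its log2-fold change was -0.44 in Ep400 ko clones (edgeR adjusted p = 0.123). Cmpk2, 854427 bases to the other side, was at most at 2.81 CPM in any library.

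By root mean square difference of log2 profiles, each centred on its mean over the 10 libraries, 3 genes were most like Sox11 among 14079. They were Bhlhe22 (1.56), Pdlim4 (1.96) and Glt1d1 (2.15), at a distance that leaves them unlike Sox11 in single libraries. The log2 profiles used a prior count of 2, which sets the values of libraries at 0 and thus affects these distances. Bhlhe22, a basic helix-loop-helix factor, was at 4.73 to 7.93 CPM in wildtype, at 0.468, 16.2 and 6.57 CPM in Kat5/1 to Kat5/3 and at most at 0.0312 CPM in Ep400 ko clones. Pdlim4, a cytoskeletal adaptor, was at 16.9 to 32.7 CPM in wildtype, at 0.551, 7.25 and 29.3 CPM in the Kat5 ko clones and at 0.258 to 0.500 CPM in Ep400 ko clones. Glt1d1, a putative glycosyltransferase gene, was at 1.70 to 3.24 CPM in wildtype, at 0.579, 3.66 and 4.72 CPM in the Kat5 ko clones and at 0 in all Ep400 ko clones. The 3 genes were thus lowest in Ep400 ko clones and in Kat5/1, and Glt1d1 also exceeded all wildtype samples in Kat5/2 and Kat5/3.

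Sox12 (chromosome 2, 152393611-152398063, minus strand) was the other SoxC gene that fell in Ep400 ko clones, and here the clones were uniform. Sox12 was at 76.1, 86.3, 75.2 and 64.1 CPM in wildtype and at 37.0, 28.7 and 35.3 CPM in Ep400/1 to Ep400/3. All Ep400 ko clones were below all wildtype samples. The log2-fold change was -1.16 with a standard error of 0.16 (edgeR adjusted p = 0.00470) and ranged from -1.24 to -1.08 when single libraries were left out. Adding replicate numbers to the model as a block gave a log2-fold change of -1.24 (standard error 0.18) with an adjusted p of 0.0529, and the call was lost. In the Kat5 ko clones Sox12 was at 64.5, 69.01 and 51.3 CPM, overlapping with wildtype. The log2-fold change of -0.32 did not pass the test (standard error 0.16, edgeR unadjusted p = 0.0786, adjusted p = 0.274). Its interval of 1.96 standard errors was -0.64 to -0.0062, which is narrower than the test implies.

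The genes nearest to Sox12 that passed this filter, chosen after values were seen, were not called. Zcchc3, a nucleic acid binding zinc finger gene 13892 bases away, was at 12.1 to 15.3 CPM in wildtype and 13.8 to 15.6 CPM in Ep400 ko clones (log2-fold change 0.075, edgeR adjusted p = 0.792). The median log2 shift of chromosome 2 in Ep400 ko clones was 0.13, 0.046 and 0.088, opposite in sign to that of Sox12. The gene with the most similar pattern was Anp32a, which codes for a histone-binding phosphoprotein (root mean square difference 0.151 on the log2 scale), with 158 to 204 CPM in wildtype, 153 to 178 in Kat5 ko and 79.1 to 105 in Ep400 ko clones. It was followed by Bcat2, a branched-chain amino acid transaminase (0.176), and Plscr1, a phospholipid scramblase (0.181).

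Sox4 (chromosome 13, 28948919-28953713, minus strand) had the highest level of the SoxC genes in every library and did not follow Sox11 and Sox12. Sox4 was at 104, 130, 115 and 88.1 CPM in wildtype. The Ep400 ko clones differed among themselves, with 90.7 CPM in Ep400/1, within the wildtype range, and 258 and 332 CPM in Ep400/2 and Ep400/3, above it. The log2-fold change of 1.06 with a standard error of 0.37 did not pass the test (edgeR adjusted p = 0.0912). It did so with DESeq2 (1.04, adjusted p = 0.0335) and without Ep400/1 (1.43, adjusted p = 0.00882), but was 0.67 without Ep400/3 (adjusted p = 0.273), 0.78 with the replicate block (adjusted p = 0.249) and 0.88 with limma (adjusted p = 0.160). In the Kat5 ko clones Sox4 was at 198 CPM in Kat5/1 and at 74.6 and 79.7 CPM in Kat5/2 and Kat5/3. The group thus lay on both sides of wildtype, and the log2-fold change was 0.083 (standard error 0.34, edgeR adjusted p = 0.910), which became -0.53 without Kat5/1 (adjusted p = 0.0633). The antisense gene Gm26735 shares 2616 exon bases with Sox4 and had 5 to 31 counts per library.

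The makeup of SoxC transcripts per length differed accordingly. In wildtype, Sox4 made up 53.5% to 56.8% of the summed CPM per kilobase of the 3 genes, Sox12 37.8% to 43.1% and Sox11 2.21% to 8.70%. The share of Sox4 in Ep400 ko clones was 69.5%, 89.3% and 89.7%, with the remainder from Sox12. Among the Kat5 ko clones, Kat5/1 had 74.0% Sox4 and no Sox11, whereas Sox11 made up 14.2% in Kat5/2 and 14.5% in Kat5/3. The sum itself was 33.7 to 47.7 CPM per kilobase in wildtype, 27.2, 60.2 and 77.2 in Ep400/1 to Ep400/3 and 55.8, 36.2 and 32.9 in Kat5/1 to Kat5/3. It was thus below the wildtype range in 1 and above it in 2 of the 3 Ep400 ko clones.

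**Figure D3:**
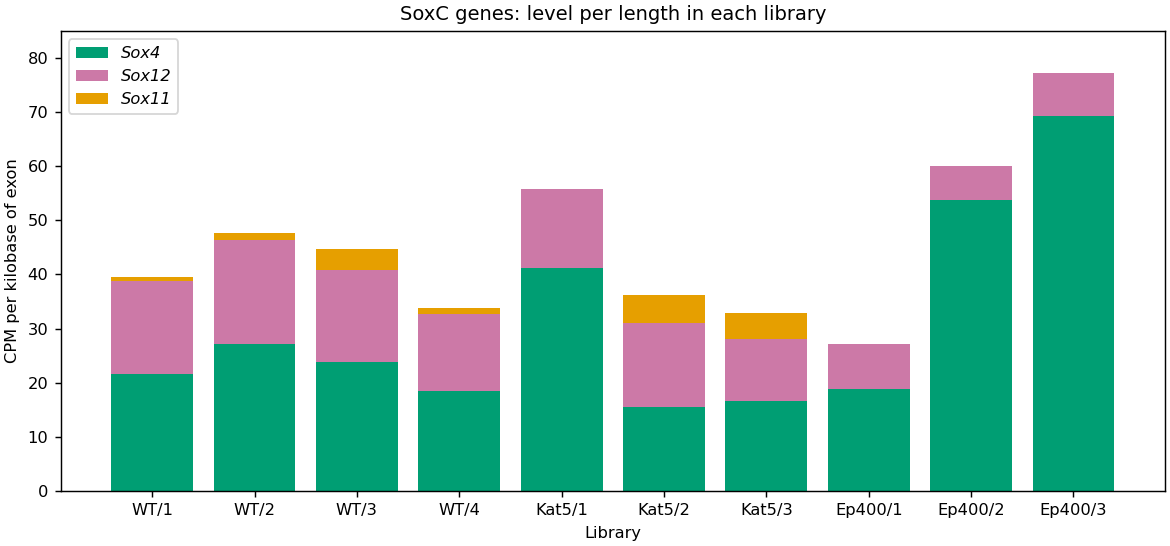
Summed CPM per kilobase of exon (vertical axis) of the SoxC genes Sox4, Sox12 and Sox11 in each of the 10 libraries, stacked by gene. Ep400/2 and Ep400/3 reach 60.2 and 77.2 CPM per kilobase through Sox4, and the Sox11 segment is missing in Kat5/1 and in all Ep400 ko clones.

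Sox2, the only SoxB1 gene with reads in these cells (chromosome 3, 34650405-34652461, plus strand), varied between clones of both genotypes. Sox2 was at 41.2, 42.4, 49.5 and 33.2 CPM in wildtype, at 62.7, 165 and 40.2 CPM in Ep400/1 to Ep400/3 and at 17.9, 71.1 and 39.5 CPM in Kat5/1 to Kat5/3. Ep400/1 and Ep400/2 exceeded all wildtype samples and Ep400/3 did not. The log2-fold change in Ep400 ko clones was 1.10 with a standard error of 0.42 (edgeR adjusted p = 0.109), with calls under DESeq2 (1.09, adjusted p = 0.0472) and without Ep400/3 (1.45, adjusted p = 0.0381), and 0.29 without Ep400/2. For the Kat5 ko clones it was 0.0083 with a standard error of 0.39 (adjusted p = 0.991), and the interval of -0.75 to 0.77 leaves room for differences in either direction. The spread of Sox2 on the log2 scale among Ep400 ko clones was larger than that of 91.3% of 14079 genes, whereas among wildtype samples it was larger than that of 48.6%. The SoxB1 genes Sox1 and Sox3 had no reads.

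The SoxD genes were low, and the Kat5 ko clones held the more distant values. Sox5 (chromosome 6, 143828425-144781977, minus strand) was at 8.46, 2.86, 16.0 and 8.06 CPM in wildtype and at 2.48, 3.36 and 2.47 CPM in Kat5/1 to Kat5/3. The Kat5 ko clones were close to each other and near the lowest wildtype sample, WT/2, with which they overlapped. The log2-fold change was -1.71 with a standard error of 0.52 and missed the threshold (edgeR adjusted p = 0.120), but was called by DESeq2 (adjusted p = 0.0134). Ep400/1 to Ep400/3 had Sox5 at 9.45, 6.12 and 8.84 CPM, within the wildtype range (log2-fold change -0.12, standard error 0.49, adjusted p = 0.887). The sign of the latter turned without WT/3 (0.32) and without Ep400/2 (0.024).

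Sox13 (chromosome 1, 133382303-133424377, minus strand) was at 1.88, 4.02, 1.72 and 1.99 CPM in wildtype and at 3.75, 2.87 and 15.8 CPM in Kat5/1 to Kat5/3. Only Kat5/3 exceeded the wildtype range. The log2-fold change of 1.61 (standard error 0.62) did not pass the test (edgeR adjusted p = 0.179) and was 0.45 without Kat5/3. The Ep400 ko clones had Sox13 at 3.26, 2.25 and 2.51 CPM, within the wildtype range (log2-fold change 0.16, standard error 0.40, adjusted p = 0.817).

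Sox6 (chromosome 7, 115470872-116038796, minus strand), the partner of Sox5 in cartilage, had 0, 3, 4 and 3 counts in wildtype, 0, 15 and 27 counts in the Kat5 ko clones and 10, 9 and 7 counts in the Ep400 ko clones. It did not pass the count filter with all libraries. Without Kat5/1 it passed, with a log2-fold change of 2.96 in Kat5 ko clones (edgeR adjusted p = 0.0309), under the limit on the mean count. By adjusted p alone, 1347 genes were higher in that fit. A fit without this filter gave log2-fold changes of 2.38 in Kat5 ko (edgeR adjusted p = 0.308) and 1.72 in Ep400 ko clones (adjusted p = 0.228).

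Of the SoxE genes, Sox9 alone was expressed at an appreciable level (chromosome 11, 112782224-112787760, plus strand). Sox9 was at 63.8, 82.6, 57.9 and 59.0 CPM in wildtype and at 56.2, 40.7 and 52.6 CPM in Ep400/1 to Ep400/3. All Ep400 ko clones were below all wildtype samples, as was the case for 14.1% of the tested genes. Its log2-fold change was -0.40 (standard error 0.18) and did not pass the test (edgeR unadjusted p = 0.0534, adjusted p = 0.161). The interval of 1.96 standard errors, -0.76 to -0.049, is narrower than the test implies. The median log2 shift of chromosome 11 in these clones was -0.20, -0.20 and -0.25, and with a chromosome offset in the model, which removes this shift, the log2-fold change of Sox9 was -0.19 (adjusted p = 0.513). The Kat5 ko clones lay on both sides of wildtype, with 126, 36.6 and 55.8 CPM in Kat5/1 to Kat5/3 (log2-fold change 0.12, standard error 0.38, adjusted p = 0.876). Without Kat5/1 the value was -0.54. Sox4 and Sox9 were both highest in Kat5/1 among the Kat5 ko clones, where Sox2 was lowest and Sox11 absent.

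Sox8 (chromosome 17, 25565892-25570686, minus strand) had at most 4 counts in any library, and Sox10 (chromosome 15, 79154908-79165240, minus strand) had 0 counts in all 10. For Sox10 this allows up to 3 counts per library, or 0.0661 to 0.0989 CPM. A fit without the count filter gave no call for Sox8 (edgeR adjusted p = 0.603 in Kat5 ko and 0.337 in Ep400 ko clones), and a difference in Sox10 was not detectable at this depth. Sox8 shares 329 exon bases with 2810468N07Rik (0 to 3 counts) and Sox5 shares 1330 with Sox5os1 (0 counts in all libraries), and reads of such pairs cannot be told apart where counting ignores strand. The other Sox5 antisense or intronic genes and Sox6os share no exon bases with a member and had at most 3 counts.

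The Ep400 ko clones were also compared directly with the Kat5 ko clones, which asks whether the knockouts differ in a Sox gene. Sox11 fell below the count filter in this comparison, because the Ep400 ko clones and Kat5/1 were at 0, and 6 members were tested. None was called (5.36% of 13587 tested genes were), with 2 at an unadjusted p of at most 0.05, as for 32.4% of the tested genes. DESeq2 called 1 member, and 1097 of all tested genes higher and 747 lower. Sox12 was lower in Ep400 ko clones by a log2-fold change of -0.89 (standard error 0.21, edgeR adjusted p = 0.0475), without overlap of the clones but under the limit on the fold change. By adjusted p alone 7.05% of all tested genes passed. The adjusted p of Sox12 was above 0.05 in 5 of 6 fits that left out 1 clone. Sox5 was higher in all Ep400 ko than in all Kat5 ko clones (log2-fold change 1.54, standard error 0.37) and missed the threshold (edgeR adjusted p = 0.0516), which it passed with DESeq2 (1.55, adjusted p = 0.000407). Groups did not overlap for 38.9% of all tested genes. For Sox2, Sox4, Sox9 and Sox13 the clones of both genotypes overlapped, with log2-fold changes of 1.04, 0.92, -0.58 and -1.50 and adjusted p-values of 0.284, 0.284, 0.393 and 0.174. With single clones left out, these ranged from 0.24 (without Ep400/2) to 1.61 (without Kat5/2) for Sox2, from 0.54 (without Ep400/3) to 1.53 (without Kat5/1) for Sox4, from -0.91 to 0.088 (without Kat5/1) for Sox9 and from -1.90 to -0.32 (without Kat5/3) for Sox13.

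Genes linked to Sox proteins were examined in lists. Of 9 further Sox genes, none was tested, 4 (Sox1, Sox3, Sox14 and Sox17) had no reads, and the highest count of any was 57. Of 12 partner factors that Sox proteins act with, 4 were tested in Kat5 ko and 6 in Ep400 ko clones. In Kat5 ko clones, where 0.365% of genes were called lower, 1 was called, Mitf, the master regulator of melanocytes. Mitf was lower (log2-fold change -1.87, edgeR adjusted p = 0.0493). It was at 3.89, 2.97 and 4.34 CPM in the clones and at 7.69 to 16.2 CPM in wildtype. With the replicate block 0 genes were called in Kat5 ko clones, so this call was lost. Without WT/1 or without WT/4, only 1 of all tested genes was called. Among the Ep400 ko results, where 4.12% of genes were called higher, 2 were called, both higher. Pax3, a paired-box factor of the early neural crest and partner of Sox10, was at 6.80, 1.31 and 6.30 CPM in Ep400 ko clones and at 0.0867 to 0.183 CPM in wildtype (log2-fold change 5.13, edgeR adjusted p = 0.00369). Tfap2a, a neural crest specifier, was at 57.7, 89.6 and 114 CPM against 19.4 to 44.7 CPM in wildtype (1.37, adjusted p = 0.0230). All 3 genes were without overlap between the clones and wildtype, as were 19.6% of tested genes in Kat5 ko and 30.2% in Ep400 ko clones. Egr2, a partner in Schwann cells, passed by adjusted p (3.07, edgeR adjusted p = 0.0207) but not the limit on the mean count. Pax3 and Egr2 were too low to test in Kat5 ko clones. In the Ep400 ko comparison they passed the count filter only through the Ep400 ko clones and could only come out higher. The share of 4.12% is therefore no measure for these genes.

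Of 14 cartilage genes that Sox9 activates together with Sox5 and Sox6, 0 of 5 tested were called in Kat5 ko (0.476% of all tested genes) and 1 of 6 in Ep400 ko clones (6.42% of all). This was Acan, the gene of the main cartilage proteoglycan aggrecan, at 22.2, 20.8, 5.56 and 24.5 CPM in wildtype and at 0.188, 0.0312 and 0 CPM in Ep400/1 to Ep400/3 (log2-fold change -7.83, edgeR adjusted p = 0.00337). In the Kat5 ko clones Acan was at 3.36, 4.81 and 56.0 CPM, on both sides of wildtype. The other tested genes of the list, among them Col11a1, Col11a2 and Col9a3, which code for minor cartilage collagens, and Wwp2, were not called in either knockout. Comp, a matrix protein, passed by adjusted p in Ep400 ko clones (2.83, edgeR adjusted p = 0.0268) under the limit on the mean, with 0.633, 0.687 and 1.74 CPM. Comp passed the count filter only through these clones and could only come out higher. The summed level of 7 chondrocyte markers was 7.44 to 25.2 CPM in wildtype, 3.86 to 56.6 in Kat5 ko and 1.00 to 2.22 in Ep400 ko clones. Acan made up most of it in wildtype, so that the sum is no separate reading, and Col2a1, the main cartilage collagen, was at most at 0.331 CPM in wildtype and 0.188 CPM in Ep400 ko clones. The median log2-fold change of the tested cartilage genes was 0.19 in Kat5 ko and -0.17 in Ep400 ko clones.

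Of 17 glial and melanocyte genes that Sox10 activates, 5 were tested in Kat5 ko and 6 in Ep400 ko clones. Foxd3 and the pigment enzyme genes Dct, Tyr and Tyrp1 had no reads in any library. In Kat5 ko clones 1 of 5 was called, Mitf (above), lower, against 0.365% of all tested genes called lower. In Ep400 ko clones 2 of 6 were called (6.42% of all tested genes), in opposite directions. Erbb3, the neuregulin receptor of Schwann cell precursors, was higher at 6.17, 3.62 and 6.35 CPM against 1.30 to 2.65 CPM in wildtype (log2-fold change 1.35, edgeR adjusted p = 0.0416). Mbp, which codes for myelin basic protein, was lower at 0.258, 0.125 and 0.498 CPM against 1.88 to 4.06 CPM (-3.26, adjusted p = 0.00920). Ednrb, the endothelin receptor of the melanocyte and enteric lineages, was at 0.704, 1.19 and 1.79 CPM in Ep400 ko clones and at most at 0.0958 CPM in wildtype (edgeR adjusted p = 0.00906, under the limit on the mean). Ednrb passed the count filter only through these clones and could only come out higher. The summed level of 6 melanocyte markers was 7.98 to 16.5 CPM in wildtype, 3.16 to 4.74 CPM in Kat5 ko clones and 9.41 to 18.7 CPM in Ep400 ko clones. Nearly all of it was Mitf, and Pmel, a melanosome protein gene, had a mean of 0.250 CPM in wildtype and 0.262 CPM in Kat5 ko clones. The sum of 8 markers of Schwann cells and glia was 3.601 to 6.26 CPM in wildtype, 1.98 to 3.88 in Kat5 ko and 2.58 to 8.02 in Ep400 ko clones. Of 4 genes known to be activated by SoxC proteins, the 2 tested were called in Ep400 ko and not in Kat5 ko clones. Tead2, a factor of the Hippo pathway, was lower at 39.8, 44.1 and 48.5 CPM in Ep400/1 to Ep400/3 against 93.9 to 177 CPM in wildtype (log2-fold change -1.66, edgeR adjusted p = 0.00652), and Tubb3, a neuronal tubulin, was higher at 22.8, 10.8 and 5.15 CPM against 2.505 to 4.89 CPM (1.83, adjusted p = 0.0374).

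**Figure D4:**
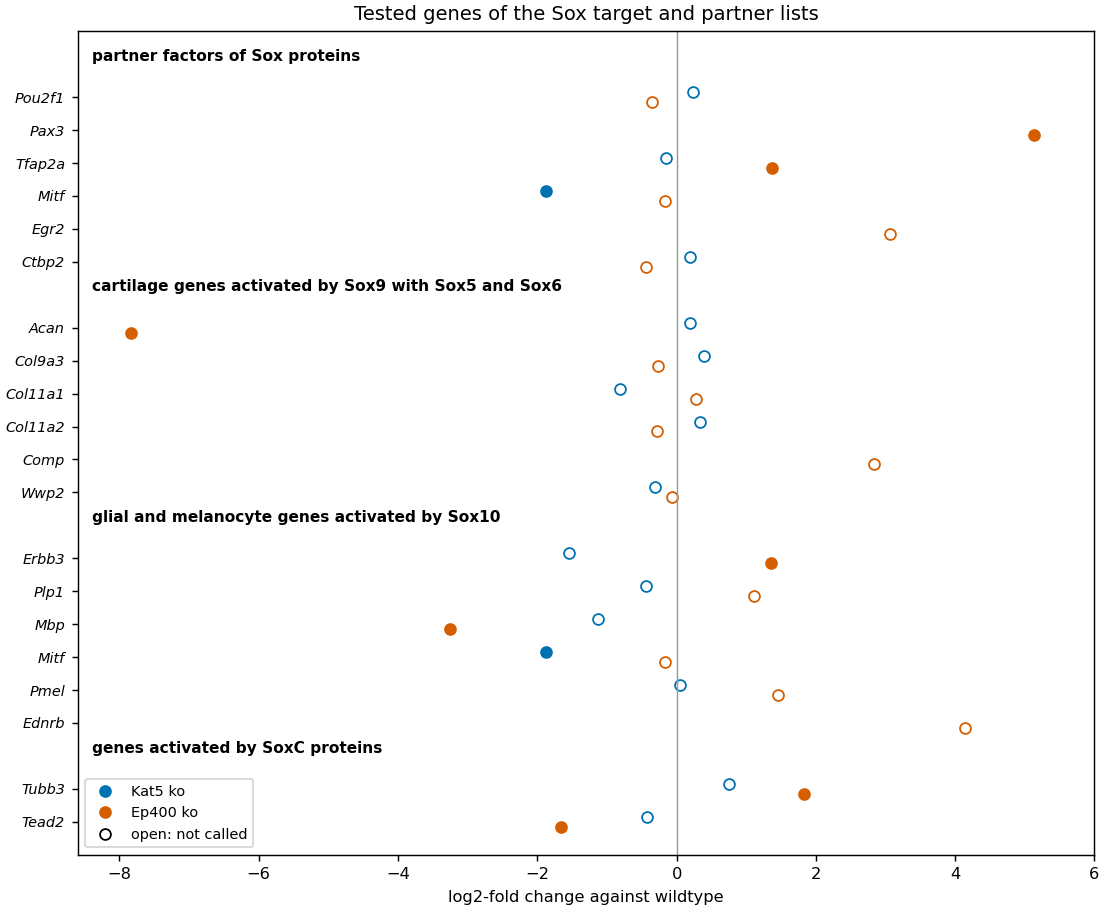
Log2-fold change against wildtype (horizontal axis) of every tested gene of the partner, cartilage, glial and melanocyte, and SoxC lists, in Kat5 ko clones (blue) and Ep400 ko clones (orange), with open points for genes that were not called. Mitf, plotted in 2 lists, is the only gene with filled points for Kat5 ko clones, and for Ep400 ko clones Acan at -7.83 lies lowest and Pax3 at 5.13 highest.

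Direct comparison of the knockouts called 1 of 6 tested partner factors (Tfap2a, higher in Ep400 ko clones, log2-fold change 1.47, edgeR adjusted p = 0.0375), 1 of 6 cartilage genes (Acan, lower, -8.08, adjusted p = 0.0379), 1 of 6 glial and melanocyte genes (Erbb3, higher, 2.85, adjusted p = 0.0357) and 1 of 2 SoxC-activated genes (Tead2, lower, -1.29, adjusted p = 0.0279). In this direct comparison 5.36% of 13587 tested genes were called. Of the lists, Mitf was the only gene called in Kat5 ko clones. It was not called between the knockouts.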

How the data were processed

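RNA was measured in 10 libraries of O9-1 cells (4 wildtype, 3 Kat5 ko clones, 3 Ep400 ko clones). The deposited counts are whole reads per gene that the authors made from poly-A, paired-end sequencing on mm10, and the submitters' processing notes name STAR 2.7.3 and DESeq2 1.36.0. The annotation and the strand setting of the counting are not given in the sources used here. The normalized tables were not used. Of the gene IDs, 42462 (98%) were found in GENCODE M21 (GRCm38), which gave positions and exon lengths. Promoters came from RefSeq (GRCm38.p6). A comparison of Sox protein sequences was not made here.

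Per comparison, genes were filtered with filterByExpr, TMM-normalized and tested with edgeR 4.0.16 (quasi-likelihood, robust, R 4.3.3) with Benjamini-Hochberg adjustment over all tested genes, which were 13434 (Kat5 ko against wildtype), 13836 (Ep400 ko against wildtype) and 13587 (Ep400 ko against Kat5 ko). Samples were grouped by their labels, and clones and wildtype samples count as replicates. Alternatives were DESeq2 1.42.0, limma 3.58.1 with voom, other filters and normalizations, 1 fit of all libraries, a replicate block, a chromosome offset, other limits and each library left out. The non-robust fit was added after values were seen. Replicate numbers did not pair the libraries (residual correlations -0.0957 to 0.223). WT/4 has no clone of the same number, so the replicate block left it out of both comparisons with wildtype. The test was checked on simulated counts. No library was a copy of another, since the chi-square statistic between replicates was 28.1 to 258 times its degrees of freedom. Mitochondrial genes took 0.893% to 3.24% of counts. Floors cover counting error only. Intervals of fold changes reflect the spread between replicates but are taken as 1.96 standard errors. With so few replicates they are narrower than the test implies and decide no call. The members and lists were chosen with earlier results of these data known. By the rule for named genes, the text names all members, the genes that overlap them, list genes that were called, at 0 or too low, and the 3 genes most similar to each called member. Other genes were chosen after their values were seen. An item of the lists is not reported here.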

Additional observations from a re-analysis of the deposited data

Results flagged for a closer look

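In wildtype, WT/3 stood apart in Sox11, with 32.3 CPM against 7.28 to 10.2 CPM in the other 3 samples. WT/2 stood apart in Sox13, with 4.02 CPM against 1.72 to 1.99 CPM in the others. Chance alone can set a sample apart in groups of this size, and how often was not tested. Sox12 passed the threshold on the adjusted p in the direct test of the knockouts, with a log2-fold change of -0.89 for Ep400 ko against Kat5 ko clones (edgeR adjusted p = 0.0475), but was under the limit on the fold change and thus not called. The adjusted p was above 0.05 in 5 of 6 fits without 1 clone, with the replicate block (0.102), with library totals alone (0.0730) and with a filter at 1 CPM (0.0521).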

How the results depend on the processing

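Of 334 values of single Sox genes under the alternatives, 302 kept their direction and their side of the threshold. Sox11 in Ep400 ko clones was called throughout. Low counts kept Sox6, Sox8 and Sox10 out of the tests that used the count filter with all libraries.

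In Kat5 ko clones 64 genes were called, 507 with DESeq2, 178 with no low-count filter, 23 with all 10 libraries in one fit, 628 by unadjusted p and 0 with the replicate block, and 1 to 885 when 1 library was left out (1 without WT/1 or WT/4, 4 without Kat5/3, 885 without Kat5/1). Sox members called numbered 0, with 1 under DESeq2, 2 by unadjusted p and 0 to 0 with 1 library left out. The log2-fold change reversed for Sox2 with limma (-0.20), library totals alone (-0.059), a filter at 1 CPM (-0.0070), the replicate block (-0.28) and a chromosome offset (-0.072), for Sox4 with limma (-0.061) and the block (-0.16), for Sox9 with limma (-0.056) and the block (-0.093) and for Sox11 with limma (-2.01) and the block (-0.40). The block also left out WT/4. The fit without WT/4 alone gave -0.072 for Sox2, 0.0094 for Sox4, 0.091 for Sox9 and 0.71 for Sox11. With 1 library left out, Sox2 ranged from -0.55 to 0.38, Sox4 from -0.53 to 0.33 and Sox9 from -0.54 to 0.45.

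In Ep400 ko clones 888 genes were called, 1178 with DESeq2 and 1899 by adjusted p alone. With the replicate block 159 were called, and 533 to 1021 with 1 library left out. By unadjusted p 857 genes were called higher and 419 lower. Members called were 2, with 4 under DESeq2, 4 by unadjusted p, 1 with the block and 2 to 3 with 1 library left out. Sox5 reversed with limma (0.097) and the block (0.12) and ranged from -0.42 to 0.32 with 1 library left out, and Sox13 from -0.015 to 0.52.

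Between the knockouts 728 genes were called (416 higher and 312 lower, but 475 and 191 with library totals alone), 1844 with DESeq2, 1775 with all 10 libraries in one fit, 1973 by unadjusted p, 200 with the block and 3 to 1753 with 1 library left out (1753 without Kat5/1, 3 without Ep400/3). Members called were 0, with 1 each under DESeq2, limma, library totals alone, the non-robust fit, adjusted p alone and unadjusted p, 2 with all 10 libraries in one fit and 0 to 1 with 1 library left out (Sox11, without Kat5/1). Sox9 ranged from -0.91 to 0.088. The cause of these changes was not tested. The replicate numbers are shared by name only, and the block therefore does not show a weaker effect.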
